A study of Rattus norvegicus with 28 samples.

Results

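The cytosolic glutathione transferases Gsta3, Gsta4, Gstp1, Gstm1, Gstm2, Gstt1 and Gstt2 were followed in the terminal ileum of newborn rats, the segment affected in necrotizing enterocolitis. They were chosen by name, with earlier results of these data known. Every probe set (a group of short probes for 1 transcript) that the platform annotation assigned to 1 of these 7 gene symbols was kept and is reported separately. This gave 15 probe sets of 7 genes, out of 8740 probe sets that were not controls and 4736 genes with a symbol, and all 15 passed the filter on low signal that left 5244 probe sets for testing. The study comprised 28 Affymetrix rat arrays, 1 per pup according to the labels, in 9 groups. In 1 regimen pups were fed formula and put under hypoxic stress 3 times daily, with tissue taken at day 1, 2, 3 or 4 of life from 3 pups each. The other regimen was breast feeding, sampled at the same 4 ages, again with 3 arrays at each age. Newborns that had not been fed formed the last group (4 arrays, day 0). The labels name no strain and no genetic change. Every pup given formula was also made hypoxic, so that feeding and hypoxia cannot be told apart.

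Cytosolic glutathione transferases join the tripeptide glutathione to reactive, electrophilic compounds, which makes them more soluble and easier to export. The alpha class (Gsta genes), the mu class (Gstm genes), the pi class (Gstp1) and the theta class (Gstt genes) differ in the substrates they prefer, and several members also reduce lipid hydroperoxides. In rodents many of these genes are inducible through the transcription factor Nrf2, which binds antioxidant response elements in their promoters. The intestinal epithelium is one of the main sites of these enzymes outside the liver, since it meets compounds from food, bile and bacteria first.

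Values are probe set signals on a linear scale after quantile normalisation of the deposited intensities. Differences are on the scale of log2(signal + 8), as formula and hypoxia minus breast-fed unless another pair is named, and folds are taken from that scale. A probe set was called when its adjusted p (limma, Benjamini-Hochberg over all 5244 probe sets) was under 0.05. Intervals are 95% confidence intervals. Among the breast-fed arrays, 2 stood apart. On day 3 replicate 3, 69 of 754 abundant probe sets lay more than 16-fold under their median in the other arrays, and on day 4 replicate 2 this held for 48 of 757, against 0 to 2 on the other 26 arrays. Both arrays bear on several members, and results that rest on them are given with and without them. The arrays were also registered in separate runs of 19 and 9, and all 3 breast-fed day 4 arrays were in the smaller one. A mean difference within the larger run therefore leaves out day 4, and is not like for like with the mean over all days. The presence of intestinal epithelium was borne out by enterocyte markers, while the segment named in the label was not checked. Their 18 probe sets summed to 16350–30475 under formula and hypoxia, against 16835–29661 in breast-fed pups, and Fabp2, the intestinal fatty acid binding protein, averaged 6169 ± 1149 and 5185 ± 1638 in the same order (SD, n = 12 each).

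The clearest change was in Gstp1. Over the 4 days its signal was 2.24-fold higher in pups given formula and hypoxia than in breast-fed pups with probe set X02904cds_s_at, and 2.52-fold higher with rc_AI012589_s_at. One probe set of Gsta3 was also called higher and the probe set of Gstt1 lower in the mean over days 1 to 4. Thus 4 of 15 probe sets were called in that comparison, 3 higher and 1 lower, against 10.5% of all probe sets tested (3.91% higher and 6.56% lower). The other 11 did not pass the test. The median difference of the 15 probe sets was 0.24, and that of all probe sets tested was 0.02. The median of the 15 on single days was 0.02 on day 1, 0.20 on day 2, 0.25 on day 3 and 0.83 on day 4. Over all probe sets tested it was 0.03, 0.01, -0.003 and 0.005 in the same order. These medians use all arrays, and genes with several probe sets count more than once. Several of the day 4 differences shrank when a low breast-fed array was left out, as given below by probe set.

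**Figure D1:**
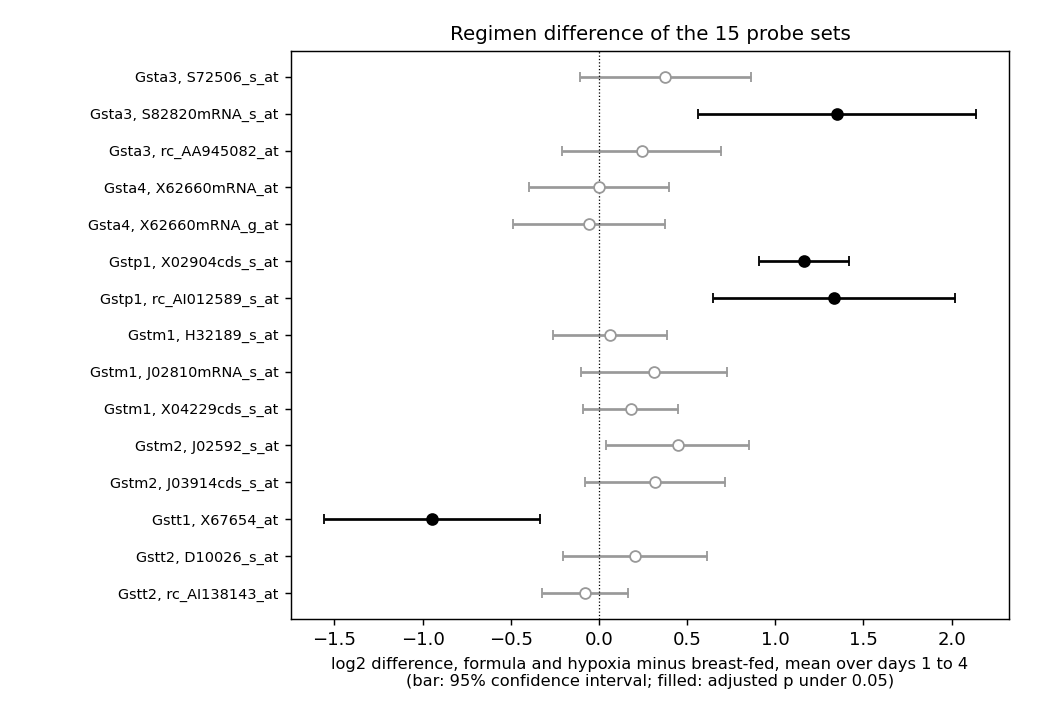
Difference between formula and hypoxia and breast feeding for each of the 15 probe sets, as the mean of the 4 daily log2 differences (horizontal axis) with its 95% confidence interval; filled symbols have an adjusted p under 0.05. Both Gstp1 probe sets (1.16 and 1.33) and Gsta3 S82820mRNA_s_at (1.35) lie to the right of 0, Gstt1 lies to the left (-0.95), and of the open symbols only Gstm2 J02592_s_at has an interval that leaves out 0.

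Gstp1 encodes the pi class enzyme, the placental form of the rat, which is best known as a marker of preneoplastic foci in rat liver and which also binds the stress kinase JNK. Its promoter is shown because it is the member with the firmest difference. The 250 bases before the RefSeq start of Gstp1 on GRCr8, chr1:210769706-210769955 on the minus strand, are given 5′ to 3′ with matched motifs in capitals, beside those of the first of 2 RefSeq starts of Gsta3, chr9:31154739-31154988 on the plus strand.
Gstp1: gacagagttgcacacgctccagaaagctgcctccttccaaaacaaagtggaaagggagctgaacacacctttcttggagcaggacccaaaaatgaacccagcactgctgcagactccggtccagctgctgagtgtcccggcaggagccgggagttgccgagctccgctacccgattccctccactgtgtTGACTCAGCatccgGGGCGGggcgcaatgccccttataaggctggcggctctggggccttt
Gsta3, first start: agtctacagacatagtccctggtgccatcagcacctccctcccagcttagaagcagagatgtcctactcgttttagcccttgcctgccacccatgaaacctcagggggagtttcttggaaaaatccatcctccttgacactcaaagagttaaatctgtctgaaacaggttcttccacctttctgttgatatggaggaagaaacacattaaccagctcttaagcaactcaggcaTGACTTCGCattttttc

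The search covered both strands for the core of the antioxidant response element (TGACNNNGC), the AP-1 site (TGACTCA) and the GC box (GGGCGG). In the Gstp1 window TGACTCAGC matched the core of the antioxidant response element from base -61 to -53 before the start, and its first 7 bases are also the AP-1 letters. A GC box lay at -47 to -42. In the Gsta3 window TGACTTCGC matched the same core at -17 to -9. Among 33469 promoter windows of the same length, 10.1% held that core, 4.05% the AP-1 letters and 30.5% the GC box. RefSeq promoters were matched for 5 of the 7 genes, with 6 windows in all. The second Gsta3 start, Gstm1 and Gstm2 held none of these letters and Gsta4 held only a GC box at -40 to -35. These matches describe the windows and say nothing of binding in these pups.

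With probe set X02904cds_s_at, Gstp1 had signals of 1720.0, 780.5 and 989.5 under formula and hypoxia on day 1, against 737, 701 and 720.0 in breast-fed pups. On day 2 the signals were 1550.5, 2367 and 2378 under formula and hypoxia, against 1349.5, 1464 and 1169 in breast-fed pups. Even on these first days the lowest array under formula and hypoxia was above the highest breast-fed one, though by a small margin. On day 3 they were 3173, 3189 and 3029 under formula and hypoxia, against 924, 1209 and 1264 in breast-fed pups. On day 4 they were 5227, 4586 and 4661 under formula and hypoxia, against 1264, 1494 and 1042 in breast-fed pups. The unfed newborns had 919, 721, 805 and 1110.1, within the range of the breast-fed arrays. The groups of the same day did not overlap on any of the 4 days, and all 12 arrays of formula and hypoxia lay above their day's breast-fed mean.

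The mean difference over days 1 to 4 for X02904cds_s_at was 1.16 ± 0.12 (SE), a fold of 2.24 (interval 1.87 to 2.67, adjusted p = 8.78e-07). The daily differences were 0.61 on day 1 (adjusted p = 0.51) and 0.64 on day 2 (adjusted p = 0.325), neither of which passed the test. On day 3 the difference was 1.47, a fold of 2.78 (1.95 to 3.96, adjusted p = 0.00208). On day 4 it was 1.94, a fold of 3.83 (2.68 to 5.46, adjusted p = 0.000256). The day 4 difference exceeded that of day 1 by 1.33 ± 0.35, which had an unadjusted p of 0.000913 and an adjusted p of 0.194, so the growth of the gap with age did not pass the test. Without the 2 breast-fed arrays that stood apart the mean difference was 1.21 (adjusted p = 9.88e-07). With the registration run as a term it was 1.17 (adjusted p = 1.46e-05). Within the larger run it was 0.95 (adjusted p = 0.00275), a mean that leaves out day 4, where the difference was largest. In the smaller run only day 4 could be compared, with 1 array of formula and hypoxia, and gave 1.72 (adjusted p = 0.548).

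Ordered by mean signal with X02904cds_s_at, formula and hypoxia on day 4 came first (4825 ± 350.1, SD, n = 3). Day 3 (3131 ± 88.1) and day 2 (2098 ± 474) of the same regimen followed, and none of these 3 groups overlapped its neighbour in that order. Then came breast-fed day 2 (1328 ± 148) and day 4 (1267 ± 226), formula and hypoxia day 1 (1163 ± 493), breast-fed day 3 (1132 ± 183), unfed newborns (889 ± 168, n = 4) and breast-fed day 1 (719 ± 17.8). From breast-fed day 2 downwards each group overlapped the next, so their order is not resolved.

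The second Gstp1 probe set, rc_AI012589_s_at, gave 2495, 1198 and 842 under formula and hypoxia on day 1, against 1525, 1080.2 and 1183 in breast-fed pups, and these groups overlapped. On day 3 the signals were 4697, 4814 and 4506 under formula and hypoxia, against 1629, 2079 and 77.2 in breast-fed pups. The value of 77.2 belongs to replicate 3, an array that stood apart, and lies 24.7-fold under the median of the other arrays. The same array gave an ordinary 1264 with X02904cds_s_at. On day 4 the signals were 7180.3, 4661 and 6478 under formula and hypoxia, against 1588, 1743 and 1957 in breast-fed pups, with no overlap.

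For rc_AI012589_s_at the mean difference was 1.33 ± 0.33 (SE), a fold of 2.52 (1.57 to 4.06, adjusted p = 0.0112). Without the 2 arrays that stood apart it was smaller but firmer, at 0.96 (adjusted p = 0.000156). It did not pass the test with the registration run as a term (0.97, adjusted p = 0.0942). Within the larger run, without day 4, it was 0.69 (adjusted p = 0.0567) and did not pass either. Day 4 within the smaller run gave 1.67. On day 3 the fold was 7.06 (2.73 to 18.3, adjusted p = 0.0262). Without the 2 arrays the log2 difference of day 3 was 1.34 in place of 2.82 (adjusted p = 0.0407), near the 1.47 of the other probe set. The day 3 call was lost without any 1 of the formula and hypoxia arrays of that day, with adjusted p from 0.0528 to 0.106. On day 4 the difference was 1.77 (adjusted p = 0.204), and without the 2 arrays 1.76 with an adjusted p of 0.00422 (0.000832 without breast-fed day 3 replicate 3 alone). Across arrays the log2 signals of the 2 Gstp1 probe sets had a Pearson r of 0.67 over 28 arrays and of 0.95 over the 26 others; the arrays share group and age differences.

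**Figure D2:**
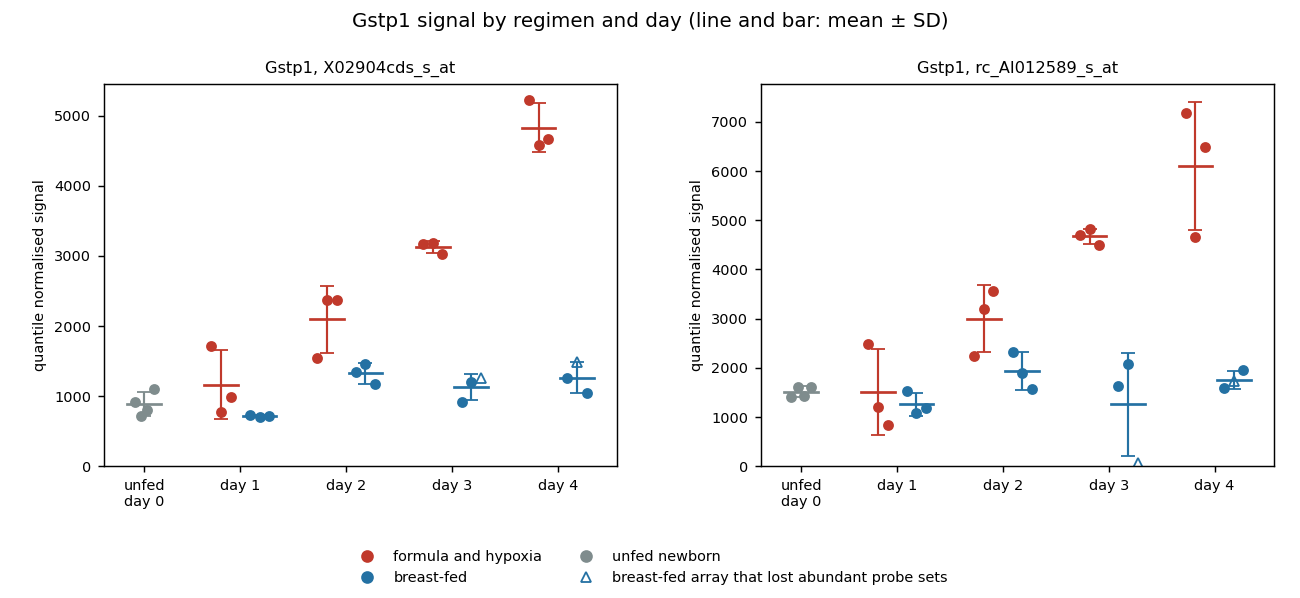
Quantile normalised signal (vertical axis, linear) of both Gstp1 probe sets in every array by day of life, with formula and hypoxia in red, breast-fed in blue and unfed in grey; lines and bars are the mean ± SD and triangles are the 2 breast-fed arrays that stood apart. Under formula and hypoxia X02904cds_s_at averaged 1163 on day 1, 2098 on day 2, 3131 on day 3 and 4825 on day 4, while the breast-fed means lay between 719 and 1328.

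Within the formula and hypoxia regimen, Gstp1 rose with age. Day 4 exceeded day 1 by 2.12 with X02904cds_s_at, a fold of 4.36 (3.05 to 6.21, adjusted p = 2.44e-05). With rc_AI012589_s_at it exceeded day 1 by 2.14, a fold of 4.39 (1.70 to 11.4, adjusted p = 0.0412), a call that was lost when any 1 of 5 arrays was left out. These were formula and hypoxia day 1 replicate 2 or 3, or any of the day 4 replicates of that regimen, with adjusted p from 0.064 to 0.149. They were the only 2 of the 15 probe sets called in that comparison, where 10.6% of all probe sets passed, with 5.17% higher on day 4. In breast-fed pups X02904cds_s_at differed by 0.79 between day 4 and day 1 (adjusted p = 0.132) and rc_AI012589_s_at by 0.49 (adjusted p = 0.774). No member was called between breast-fed day 4 and day 1, against 0.362% of all probe sets, with 5 of 15 at an unadjusted p under 0.05, against 843 of all 5244. Formula and hypoxia on day 1 differed from unfed newborns by 0.32 with X02904cds_s_at (adjusted p = 0.742). These age comparisons share arrays with the daily regimen comparisons.

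In the single days, 2 of 15 probe sets were called on day 3, both of Gstp1 and both higher, against 1.83% of all probe sets in either direction and 0.877% higher. On day 4, 2 of 15 were called higher, X02904cds_s_at of Gstp1 and X04229cds_s_at of Gstm1, against 1.75% in either direction and 0.648% higher. None was called on day 1, against 0.172% of all probe sets, or on day 2, against 1.11%. At an unadjusted p under 0.05 there were 2 of 15 on day 1, against 453 of all 5244, and 1 of 15 on day 2, against 499 of 5244. None was called in limma's test of the change of the regimen difference between day 1 and day 4, where 0.114% of all probe sets passed and 5 of 15 had an unadjusted p under 0.05, against 360 of all 5244. The F test of any difference among the 4 days called none either, against 0.0191% of all probe sets, with 4 of 15 at an unadjusted p under 0.05, against 355 of all 5244. On day 4 the regimens did not overlap in 10 of 15 probe sets. In 6 of them formula and hypoxia was higher, against 8.47% of all probe sets, and in 4 it was lower, against 12.1%. On day 1 the counts were 2 higher and 1 lower (6.71% and 6.52% of all probe sets), on day 2 they were 1 and 0 (10.7% and 9.99%), and on day 3 they were 3 and 0 (8.1% and 9.86%).

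**Figure D3:**
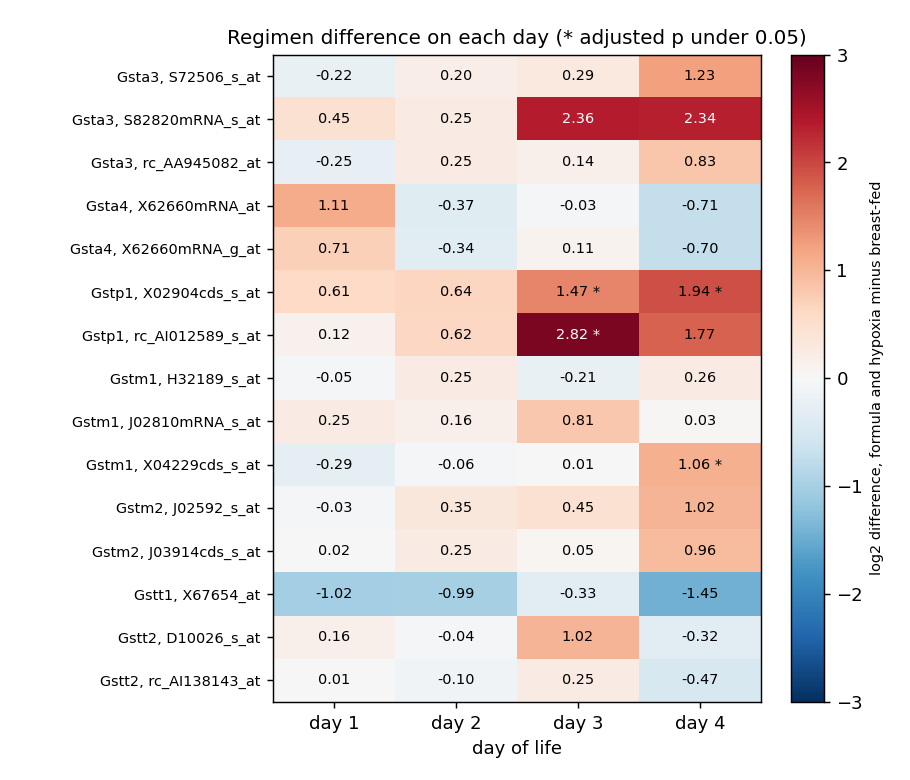
Log2 difference between formula and hypoxia and breast feeding on each day of life (columns) for each of the 15 probe sets (rows), with colour from blue (lower under formula and hypoxia) to red (higher); an asterisk marks an adjusted p under 0.05. Gstp1 X02904cds_s_at is positive on each day, from 0.61 on day 1 to 1.94 on day 4, Gstt1 is negative on each day, and Gsta4 X62660mRNA_at is 1.11 on day 1 and -0.71 on day 4.

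Gsta3 belongs to the alpha class, whose rat Yc subunits are known for conjugating the activated form of aflatoxin B1. RefSeq lists Gsta5 and Yc2 as other names of this gene, so the probe sets may stand for closely related alpha subunits. The 3 Gsta3 probe sets did not move alike. S72506_s_at and rc_AA945082_at had a Pearson r of 0.91 across 28 arrays, while S82820mRNA_s_at had an r of 0.17 with S72506_s_at and of 0.10 with rc_AA945082_at (0.37 and 0.24 over 26 arrays).

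Probe set S82820mRNA_s_at gave 1051, 771 and 1447 under formula and hypoxia on day 1, against 776, 989.5 and 588 in breast-fed pups. On day 2 it gave 1872, 1363 and 1339 under formula and hypoxia, against 1513, 783 and 1692 in breast-fed pups. The groups overlapped on both of these days. On day 3 it gave 1609.5, 833 and 1423 under formula and hypoxia, against 424, 669 and 41.6 in breast-fed pups. On day 4 it gave 930.2, 974 and 1294 under formula and hypoxia, against 351, 32.1 and 633 in breast-fed pups. The groups of days 3 and 4 did not overlap, since the highest breast-fed values of 669 and 633 also lay below every array of formula and hypoxia. The unfed newborns had 846, 683, 581 and 319.

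The mean difference of S82820mRNA_s_at was 1.35 ± 0.38 (SE), a fold of 2.55 (1.48 to 4.41, adjusted p = 0.0247). On the log2 scale all 12 arrays of formula and hypoxia lay above their day's breast-fed mean. By linear signal the day 1 array at 771 lay under the breast-fed day 1 mean of 785. The values of 41.6 and 32.1 came from the 2 arrays that stood apart and were 20.3-fold and 26.3-fold under the median of the others. Without these arrays the difference was 0.76 (adjusted p = 0.0133). It was 1.09 with the registration run as a term (adjusted p = 0.138) and 0.70 within the larger run without day 4 (adjusted p = 0.0586). Neither passed the test, and day 4 within the smaller run gave 2.65. The differences of 2.36 on day 3 (adjusted p = 0.115) and of 2.34 on day 4 (adjusted p = 0.126) did not pass the test, and without the 2 arrays they were 1.21 (adjusted p = 0.214) and 1.15 (adjusted p = 0.202). Leaving out only breast-fed day 3 replicate 3 gave an adjusted p of 0.554 on day 3 and of 0.0431 on day 4. Leaving out only breast-fed day 4 replicate 2 gave 0.0406 on day 3 and 0.592 on day 4. Between day 4 and day 1, formula and hypoxia differed by 0.00 (interval -1.58 to 1.58) and the breast-fed groups by -1.89 (adjusted p = 0.232).

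The other Gsta3 probe sets did not pass the test in any comparison. Between day 4 and day 1 of formula and hypoxia S72506_s_at differed by 1.26 (adjusted p = 0.0863). That difference was called in 3 of 41 alternatives, without breast-fed day 4 replicate 1 (adjusted p = 0.0454), with the deposited scaling (0.0445) and with array weights (0.0247). For rc_AA945082_at it was 1.06 (adjusted p = 0.122) and was called in 1 of 41, with array weights (0.0284). S72506_s_at averaged 252 ± 109 under formula and hypoxia and 197 ± 87.8 in breast-fed pups (SD, n = 12 each), a mean daily difference of 0.38 (interval -0.11 to 0.86). Its day 4 signals were 338, 263 and 372 under formula and hypoxia, against 50.6, 154 and 284 in breast-fed pups, a difference of 1.23 (adjusted p = 0.212). The breast-fed value of 50.6 was 4.19-fold under the median of the other arrays, and it came from replicate 1, not from an array that stood apart. Without that replicate the day 4 difference of S72506_s_at was 0.60 (adjusted p = 0.578). rc_AA945082_at averaged 102 ± 44.2 under formula and hypoxia and 83.7 ± 32.2 in breast-fed pups, a difference of 0.24 (interval -0.21 to 0.69).

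**Figure D4:**
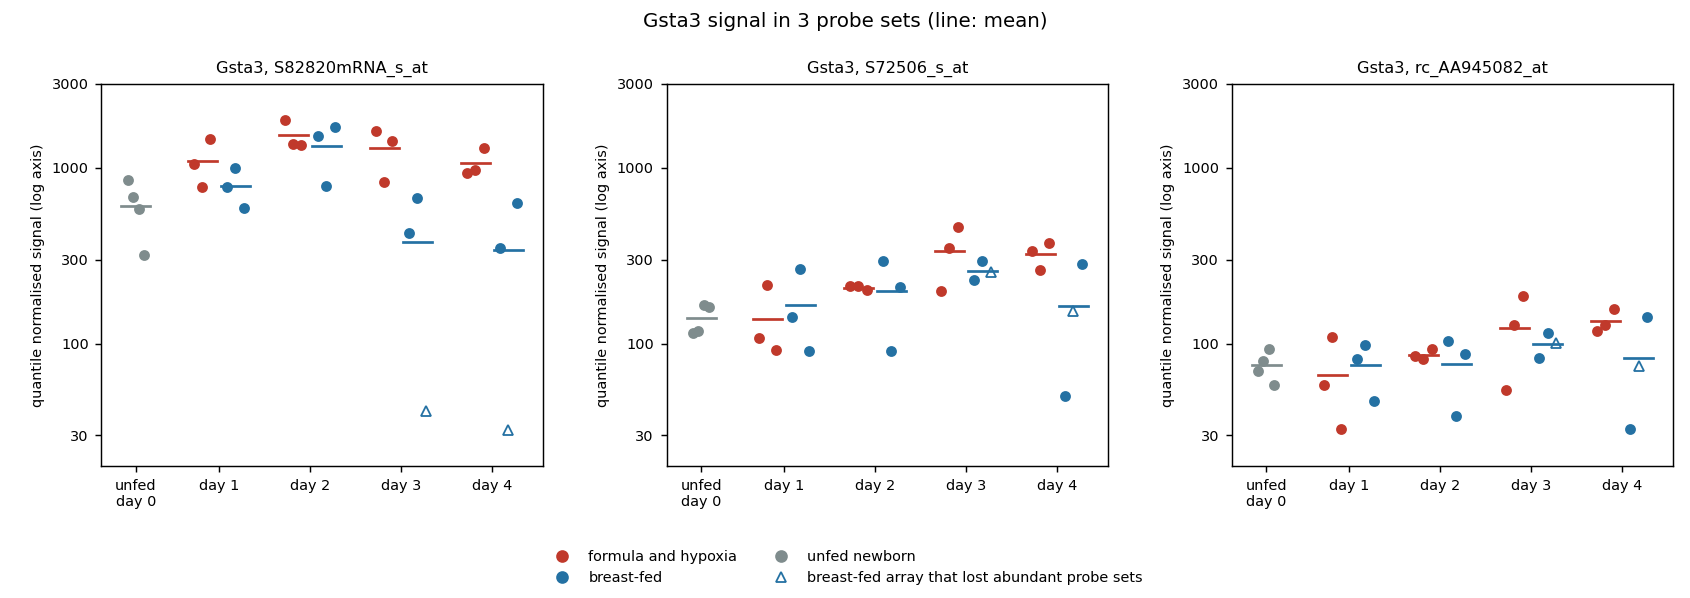
Quantile normalised signal (vertical axis, log scale) of the 3 Gsta3 probe sets in every array by day of life, with formula and hypoxia in red, breast-fed in blue and unfed in grey; triangles are the 2 breast-fed arrays that stood apart. With S82820mRNA_s_at the triangles lie at 41.6 on day 3 and 32.1 on day 4, far under every other array, whereas in the other panels they lie among the other arrays.

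Gsta4 encodes the alpha class enzyme that removes 4-hydroxynonenal, an aldehyde formed when membrane lipids are oxidised. Its mean difference over the 4 days was 0.00 with X62660mRNA_at (interval -0.40 to 0.40) and -0.06 with X62660mRNA_g_at (interval -0.49 to 0.38). The daily differences had opposite signs at the ends of the series. On day 1 X62660mRNA_at gave 387, 656 and 258 under formula and hypoxia, against 182, 186 and 181 in breast-fed pups. On day 4 it gave 155, 200.5 and 187 under formula and hypoxia, against 457, 256 and 226 in breast-fed pups. The groups did not overlap on either day, with formula and hypoxia higher on day 1 and lower on day 4, and they overlapped on days 2 and 3. The difference was 1.11 on day 1 (adjusted p = 0.387) and -0.71 on day 4 (adjusted p = 0.424). The change between them was -1.81, with an unadjusted p of 0.00285 and an adjusted p of 0.335. With X62660mRNA_g_at that change was -1.42 (adjusted p = 0.636), and that probe set overlapped between the regimens on every day. The 2 probe sets had a Pearson r of 0.89 across 28 arrays.

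Among the day 1 comparisons with unfed newborns, the largest difference of any member was that of Gsta4 in breast-fed pups. Breast-fed pups on day 1 had 182, 186 and 181 with X62660mRNA_at, against 751, 469, 793 and 584 in unfed newborns. The groups did not overlap, and the difference of -1.75 had an unadjusted p of 5.97e-05 and an adjusted p of 0.156. With X62660mRNA_g_at breast-fed pups on day 1 had 359, 414 and 349, against 1169, 672, 1942 and 851 in unfed newborns, a difference of -1.50 (adjusted p = 0.424). With limma's array weights these differences were -1.93 (adjusted p = 0.0045) and -1.97 (adjusted p = 0.00546). For X62660mRNA_at the difference was also called without unfed replicate 2 (-1.90, adjusted p = 0.0384). No member was called between breast-fed day 1 and unfed newborns by limma without weights (3 at an unadjusted p under 0.05), and neither was any of all probe sets tested, a share of 0%, with 284 at an unadjusted p under 0.05. Formula and hypoxia on day 1 differed from unfed newborns by -0.65 with X62660mRNA_at (adjusted p = 0.627). In that comparison too none of the 15 was called, against 0.172% of all probe sets, and 1 had an unadjusted p under 0.05, against 496 of all 5244. Formula and hypoxia on day 4 and day 1 differed by -1.13 with X62660mRNA_at (adjusted p = 0.0616), which passed the test without day 1 replicate 3 (0.036) or day 3 replicate 2 (0.0479) or 3 (0.0477) of that regimen.

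Gstm1 and Gstm2 are mu class enzymes that conjugate many epoxides and quinones and are neighbours in the RefSeq annotation. None of their 5 probe sets was called in the mean over days. The mean differences of Gstm1 were 0.06 with H32189_s_at (interval -0.26 to 0.39), 0.31 with J02810mRNA_s_at (-0.10 to 0.73) and 0.18 with X04229cds_s_at (-0.09 to 0.45). Those of Gstm2 were 0.45 with J02592_s_at (0.04 to 0.85, adjusted p = 0.149) and 0.32 with J03914cds_s_at (-0.08 to 0.71). For J02810mRNA_s_at breast-fed day 3 replicate 3, an array that stood apart, had a signal of 49.0, 4.68-fold under the median of the others. Without that array the mean difference of J02810mRNA_s_at was 0.14 in place of 0.31, and its day 3 difference 0.11 in place of 0.81. Without the 2 arrays the mean difference of J02592_s_at was 0.21 (adjusted p = 0.444) and that of H32189_s_at 0.00.

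On day 4 the Gstm1 probe set X04229cds_s_at gave 179, 159 and 147 under formula and hypoxia, against 54.8, 63.8 and 110.0 in breast-fed pups. The groups did not overlap, and on days 1 to 3 they did. The difference on day 4 was 1.06, a fold of 2.09 (1.44 to 3.04, adjusted p = 0.0385). The breast-fed day 4 mean of 76.2 ± 29.6 was the lowest of the 9 groups, and the other 8 lay between 136 and 182. Between breast-fed day 4 and day 1 the difference was -1.09 (adjusted p = 0.0706), which passed the test when replicate 3 of breast-fed day 4 (0.0203) or replicate 1 of day 3 of the other regimen (0.0426) was left out. Between day 4 and day 1 of formula and hypoxia it was 0.27 (adjusted p = 0.575). The day 4 call did not hold without the 2 arrays that stood apart (0.97, adjusted p = 0.124) or with the registration run as a term (1.14, adjusted p = 0.1), and the smaller run alone gave 0.98 (adjusted p = 0.999), since the larger one holds no breast-fed day 4 array. It was also lost without any 1 of 5 arrays, breast-fed day 4 replicate 1 or 2 or any replicate of formula and hypoxia on day 4, with adjusted p from 0.0629 to 0.188. The other Gstm1 probe sets differed on day 4 by 0.03 (J02810mRNA_s_at) and 0.26 (H32189_s_at), with adjusted p of 0.985 and 0.778. Pearson r between the Gstm1 probe sets lay between 0.24 and 0.56 over 28 arrays.

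Gstm2 did not pass the test on any day, although its probe sets did not overlap between the regimens on day 4. J02592_s_at gave 270.0, 245 and 288 under formula and hypoxia on day 4, against 239, 60.4 and 139.9 in breast-fed pups. The difference was 1.02 (adjusted p = 0.219), and 0.52 without the 2 arrays that stood apart, to which the value of 60.4 belongs. J03914cds_s_at gave 167, 144 and 184 under formula and hypoxia on day 4, against 32.2, 133 and 116 in breast-fed pups, a difference of 0.96 (adjusted p = 0.23). Its low value of 32.2 came from replicate 1, without which the difference was 0.38 (adjusted p = 0.662). Without the 2 arrays that stood apart it was 1.28 (adjusted p = 0.129). The 2 Gstm2 probe sets had a Pearson r of 0.24 across 28 arrays.

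Gstt1 and Gstt2 are theta class enzymes, which act on small halogenated compounds and organic hydroperoxides. Gstt1 was the only member called lower. Its 1 probe set, X67654_at, was dim, with a mean signal of 33.8 at the 42.4th percentile of all probe sets, just above the filter at the 40th. It gave 11.3, 10.2 and 15.2 under formula and hypoxia on day 1, against 33.9, 24 and 42.4 in breast-fed pups. On day 2 it gave 6.38, 14.9 and 11.7 under formula and hypoxia, against 47.5, 10.6 and 41.2 in breast-fed pups. On day 3 it gave 8.04, 78 and 48.6 under formula and hypoxia, against 57.1, 93.9 and 15.3 in breast-fed pups. On day 4 it gave 11.5, 11.2 and 17.3 under formula and hypoxia, against 31.2, 89.2 and 42.5 in breast-fed pups. The regimens did not overlap on days 1 and 4 and overlapped on days 2 and 3. Unfed newborns had 13.2, 17.8, 49.4 and 92.4, within the range of both regimens together.

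The mean difference of Gstt1 was -0.95 ± 0.30 (SE), with an adjusted p of 0.0423. On the log2 scale 10 of 12 arrays of formula and hypoxia lay below their day's breast-fed mean. The call was close to the threshold: it held in 11 of the 28 repeats that left out 1 array, with adjusted p from 0.0161 to 0.0815. It was lost without any replicate of formula and hypoxia on day 1 or 2, replicate 1 of day 3 or replicate 1 or 2 of day 4. It was also lost without breast-fed replicate 1 or 3 of day 1 or 2, replicate 1 or 2 of day 3, or replicate 2 or 3 of day 4. It held without the 2 arrays that stood apart (adjusted p = 0.0272) but not with the registration run as a term (-0.98, adjusted p = 0.0914). It was also lost with the deposited scaling (adjusted p = 0.0532), without a filter (adjusted p = 0.0635) and with the number format (10 of 28 arrays carry longer decimals) as a term (adjusted p = 0.197). Within the larger run the probe set was below the filter, and day 4 within the smaller run gave -1.22 (adjusted p = 0.999). As the probe set is dim, the size depended on the constant added before the logarithm, with -1.19 for a constant of 2 (adjusted p = 0.0378) and -0.54 for 32 (adjusted p = 0.0586).

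Gstt2 did not pass the test in any comparison. Its mean difference was 0.21 with D10026_s_at (interval -0.20 to 0.61) and -0.08 with rc_AI138143_at (interval -0.32 to 0.16). On day 4 D10026_s_at gave 95.5, 95 and 111 under formula and hypoxia, against 136, 111 and 135 in breast-fed pups. On that day rc_AI138143_at gave 162, 163 and 170.2 under formula and hypoxia, against 239.5, 255 and 204 in breast-fed pups. In both probe sets formula and hypoxia lay below breast feeding on day 4 without overlap, with differences of -0.32 (adjusted p = 0.781) and -0.47 (adjusted p = 0.365). On day 3 D10026_s_at differed by 1.02 (adjusted p = 0.199), with a value of 12.7 in breast-fed replicate 3, the array that stood apart, which was 7.52-fold under the median of the others. Without that array the day 3 difference of D10026_s_at was 0.24 (adjusted p = 0.799) and its mean difference 0.01.

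**Figure D5:**
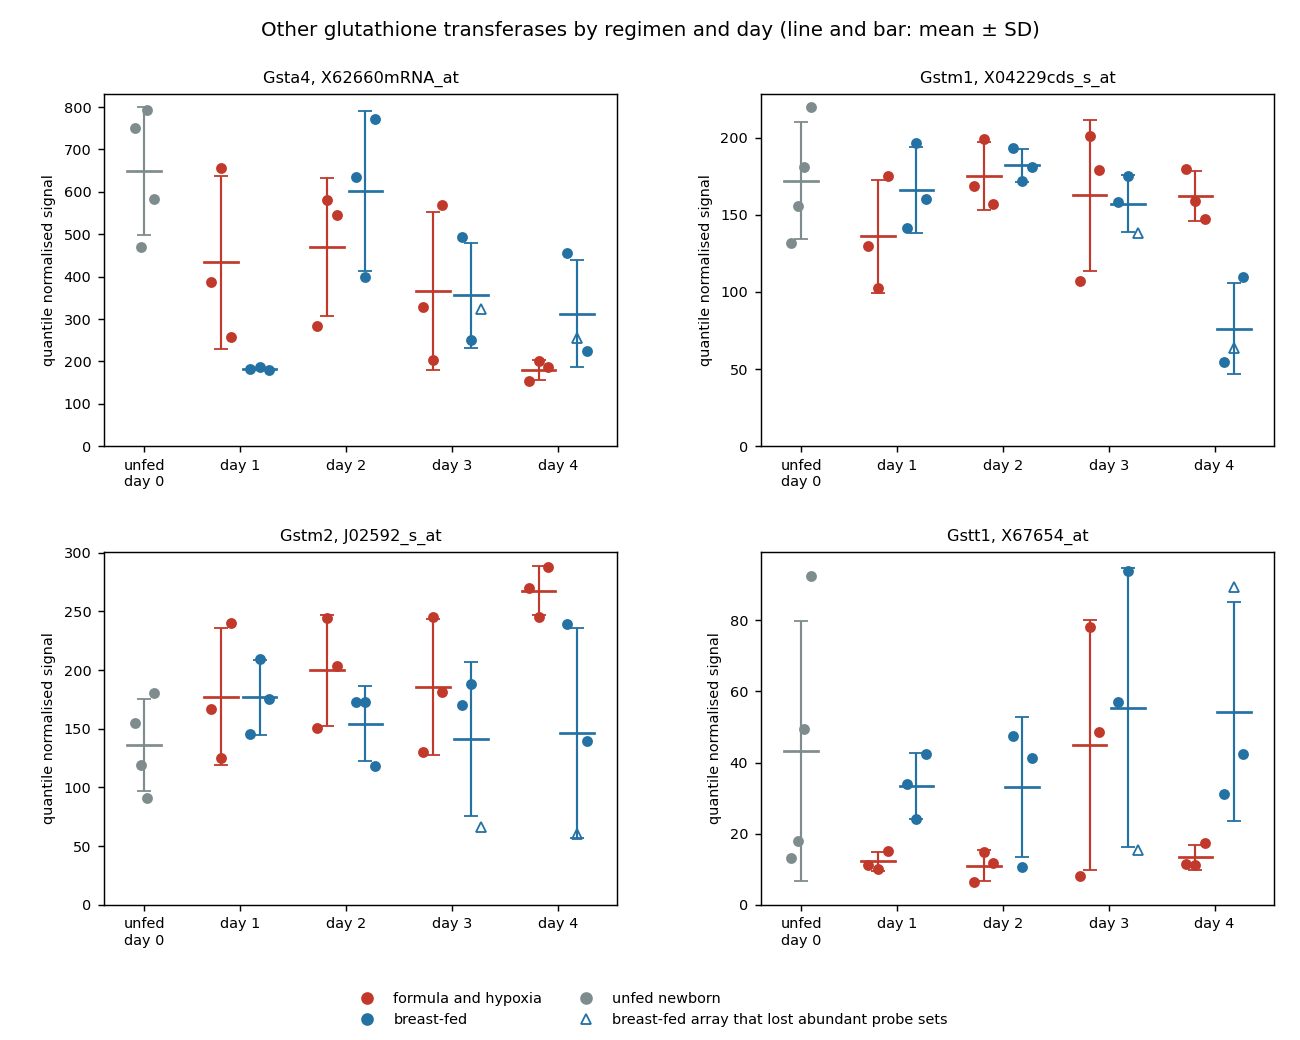
Quantile normalised signal (vertical axes, linear) of 4 probe sets in every array by day of life, with formula and hypoxia in red, breast-fed in blue and unfed in grey; lines and bars are the mean ± SD and triangles are the 2 breast-fed arrays that stood apart. For Gsta4 X62660mRNA_at both breast-fed day 1 (183 ± 2.85) and formula and hypoxia day 4 (181 ± 23.5) are low. Breast-fed day 4 is low for Gstm1 X04229cds_s_at (76.2 ± 29.6), and Gstt1 is low under formula and hypoxia on days 1, 2 and 4.

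Genes around the family were described by lists of probe sets, whose counts stand against the 10.5% of all probe sets called in the mean over days. Of other glutathione transferases, 15 probe sets of 9 genes were tested, and 1 was called higher in the mean over days and 0 lower, with a median difference of 0.46 (0.02 over all probe sets). One of 15 is below the share over all probe sets. The called one was Mgst3, a microsomal transferase and peroxidase, with 1829 ± 550 under formula and hypoxia and 1323 ± 433 in breast-fed pups (SD, n = 12 each), a difference of 0.48 (adjusted p = 0.0176). Of genes for glutathione synthesis, recycling and breakdown, 25 probe sets of 14 genes were tested, 4 were called higher and 1 lower, and the median difference was 0.18. Gclm, the modifier subunit of the enzyme that starts glutathione synthesis, averaged 365 ± 51.2 under formula and hypoxia and 236 ± 50.1 in breast-fed pups with S65555_at, a difference of 0.63 (adjusted p = 0.000375). Its other 2 probe sets tested were not called, with differences of 0.53 (adjusted p = 0.0914) and 0.27 (adjusted p = 0.55). Gsr, which regenerates reduced glutathione, was called with 2 of its 3 probe sets, with differences of 1.13 (adjusted p = 0.0141) and 0.56 (adjusted p = 0.0149). Gpx2, the glutathione peroxidase of the gut epithelium, differed by 0.62 (adjusted p = 0.00624). Dpep1, a peptidase that splits the dipeptide left when glutathione is broken down, was lower with 1 of its 2 probe sets, by -0.55 (adjusted p = 0.0378). Its other probe set, L07315_at, differed by 0.10 and was not called (adjusted p = 0.779).

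Of targets of Nrf2 and other genes of the oxidant response, 20 probe sets of 13 genes were tested, 2 were called higher and 0 lower, and the median difference was 0.21. That count is near the share over all probe sets. Nqo1, a quinone reductase, averaged 188 ± 120.0 under formula and hypoxia and 99.1 ± 50.4 in breast-fed pups, a difference of 0.80 (adjusted p = 0.0271). Abcc2, an exporter of glutathione conjugates, averaged 476 ± 303 under formula and hypoxia and 239 ± 110.5 in breast-fed pups, a difference of 0.82 (adjusted p = 0.0355). Nfe2l2, which encodes Nrf2 and is named after its values were seen, differed by -0.27 and -0.22 with its 2 probe sets (adjusted p = 0.488 and 0.559). Without the 2 arrays that stood apart the counts were 2 higher and 0 lower of the other transferases, 4 and 4 of the glutathione genes and 1 and 0 of the Nrf2 list. Nqo1 then did not pass the test (0.56, adjusted p = 0.0871). With the registration run as a term the counts were 0 and 0, 4 and 0, and 0 and 0 in the same order. Within the larger run, where the mean leaves out day 4, they were 1 and 0, 2 and 2, and 0 and 1. The medians there were 0.20, 0.07 and -0.04, against 0.46, 0.18 and 0.21 with all arrays and days. The median of the Nrf2 list thus had the opposite sign, and the run and the missing day cannot be told apart in this. Leaving out 1 array at a time, Abcc2 was called in 17 of 28 repeats, Nqo1 in 23 and Dpep1 in 16, while Gclm S65555_at, both called Gsr probe sets, Gpx2 and Mgst3 were called in all 28. The Mgst3 call was lost with the deposited scaling (adjusted p = 0.0772) and with a common median (0.234). With a common median the calls of Gpx2 (0.134) and of Gsr rc_AA893189_at (0.0978) were lost as well, and within the larger run those of Mgst3, Gpx2 and that Gsr probe set (0.0765, 0.0702 and 0.0809).

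Ileum holds several cell types, and in whole tissue fewer cells of a type and less RNA per cell cannot be told apart. Markers of some types moved with the regimen. Over all probe sets tested, 6.56% were called lower and 3.91% higher. Leukocyte markers were called lower with 5 of 7 probe sets tested (Coro1a, Cd53 and 3 of Cd74). The 2 not called were another of Cd74 (-0.56, adjusted p = 0.232) and Ptprc M25823_s_at (-0.10, adjusted p = 0.803). The leukocyte markers had a summed signal of 500–1256 under formula and hypoxia, against 848–2058 in breast-fed pups. Without the 2 arrays that stood apart 2 of 7 were called lower. Of the goblet and Paneth cell markers 2 of 6 probe sets tested were called lower, Tff3 (-0.69) and Muc2 M81920_at (-1.08). The second Muc2 probe set tested, U68172mRNA_s_at, differed by 0.03, Clca4 by 0.21, Defa5 by 0.14 and Lyz2 by 0.04, none of them called, and the median of the 6 was 0.03. The 6 had summed signals of 4259–11908 under formula and hypoxia and 7427–13177 in breast-fed pups. Both red cell probe sets, Hbb and Alas2, were called higher, with sums of 7100.2–10971 under formula and hypoxia and 4563–9574 in breast-fed pups. Of the enterocyte markers 0 of 18 probe sets were called, 0 of 10 of smooth muscle and 0 of 3 of fat. Of exocrine pancreas 1 of 4 was called higher (Prss1, 0.55, adjusted p = 0.0238). Of liver 0 of 11 tested were called, and all 4 albumin probe sets were below the filter. Their means over all days of a regimen lay between 4.76 and 27.2. On day 4 enterocyte markers summed to 25445–30475 under formula and hypoxia, against 20277–27368 in breast-fed pups. The part of these markers in the differences of the glutathione transferases was not tested.

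By Pearson r of log2 signal over 28 arrays, the named probe sets most like the brightest probe set of each member were as follows. Gsta3 S82820mRNA_s_at was most like Akr7a3, an aldehyde reductase for aflatoxin dialdehyde (r = 0.94, and 0.74 over the 26 arrays that did not stand apart), and next Cox4i1 (0.89, and 0.38 over 26) and Map2k2 (0.86, and 0.20 over 26). Gstp1 rc_AI012589_s_at was most like both probe sets of Hsp90ab1 (0.89 and 0.87, and 0.77 and 0.70 over 26), and then Cldn3 (0.87, and 0.74 over 26). Gstp1 X02904cds_s_at, added after its values were seen because it was little affected by those arrays, was most like Ctbp1 (0.82), Plec (0.82) and Lgals3 (0.80). Gstm1 J02810mRNA_s_at was most like Psmb4 and Mgst2 (0.90 each, and 0.71 each over 26) and a second Psmb4 probe set (0.89, and 0.69 over 26). Gstm2 J02592_s_at was most like 2 probe sets of Ccnd3 (0.77 and 0.74, and 0.50 and 0.49 over 26) and Lpl (0.75, and 0.62 over 26). Gsta4 X62660mRNA_g_at was most like Slc2a4 and Hikeshi (0.69 each) and Polr1d (0.67). Gstt1 was most like Fbp2 (0.77), Psmb9 (0.72) and Bmyc (0.70), and Gstt2 rc_AI138143_at like Mrgprf (0.69), Ncdn (0.67) and Scarb1 (0.60). The arrays share regimen, age and, for the first named genes, the 2 arrays with lost probe sets, and these r values are a description of likeness only.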

How the data were processed

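Total RNA from the ileum of 28 rat pups was hybridised to 1 Affymetrix array each. The deposited values are probe set intensities on a linear scale. From the values, the authors had scaled 26 of the 28 arrays to a common 2% trimmed mean (150.2 to 150.5); the sources used here do not give the software or the summary method. Groups and replicate numbers were taken from the labels.

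Intensities were quantile normalised between arrays, 8 was added and log2 taken. Of 8799 probe sets, 59 controls were left out, and 5244 with a mean above the 40th percentile (a signal of 24.0) were tested with limma 3.58.1 in R 4.3.3: 1 mean per group over all 28 arrays (19 residual degrees of freedom), empirical Bayes moderation with an intensity trend, Benjamini-Hochberg adjustment over all 5244, two-sided, adjusted p under 0.05. The fit was tested on simulated data with known changes and independent noise. That simulation left out the normalisation, the filter, the runs and the arrays that stood apart, and does not bear on them. Of the 8740 probe sets that were no controls, 7006 had a single symbol, 308 several and 1426 none; all 7 member symbols matched RefSeq.

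The members, the lists of related genes and the cell type markers were chosen with earlier results of these data known. All member probe sets are named; related genes are named with values where called in the mean over days (at most 12, the largest first); the 3 probe sets most like the brightest one of each member were ranked by Pearson r. Alternatives changed the scaling, the constant added, the filter, the unit of testing, the trend, array weights, a replicate block, the registration run, the number format and the arrays included. Each array is 1 pup, and the number of arrays limits the precision.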

Additional observations from a re-analysis of the deposited data

Results flagged for a closer look

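In the unfed newborns, Gstm2 J03914cds_s_at had a signal of 212 in replicate 4, against 105, 99.8 and 106 in replicates 1 to 3. The gap between replicate 4 and the nearest other array was 0.942 of the group's whole range. The 4 unfed arrays were tested in this way for each of the 15 probe sets, and chance marks about 1 group in 20. The group means and the comparisons of day 1 with unfed newborns include this array, and no call of Gstm2 was made in them.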

How the results depend on the processing

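In the mean over days, 4 of 15 probe sets were called with all arrays, and 1 with the registration run or the number format as a term. Within the larger run, where the mean leaves out day 4, 1 was called. The count was 3 with the deposited scaling, a constant of 32, no filter, 1 test per gene and the 60th percentile filter, which left Gstt1 untested. The number format term was chosen after seeing the data, since 10 arrays carry longer decimals. With 1 test per gene 7 of the 15 were tested, the brightest of each gene, and neither Gstp1 X02904cds_s_at nor Gstm1 X04229cds_s_at was among them, so the lower counts of that setting are not lost calls. On day 1, array weights called 1 in place of 0. On day 3, in place of 2, the counts were 1 with the deposited scaling, 0 with a common median, 1 with 1 test per gene, 1 with array weights, 1 with the run as a term, 1 in the larger run and 1 with the number format. On day 4, in place of 2, they were 1 with a common median, 0 with 1 test per gene, 1 with the run as a term, 0 in the smaller run and 1 with the number format. Against unfed newborns, array weights called 2 in breast-fed day 1. Between breast-fed day 4 and day 1 the deposited scaling called 1 and array weights 2, in place of 0. Between day 4 and day 1 of formula and hypoxia, in place of 2, the counts were 1 with a common median, 1 without a filter, 1 with 1 test per gene and 6 with array weights. Leaving out 1 array at a time gave 3 to 4 in the mean, 1 to 3 on day 3, 1 to 4 on day 4, 0 to 1 for breast-fed day 1 against unfed, 0 to 1 for breast-fed day 4 against day 1, 1 to 3 for formula and hypoxia day 4 against day 1, and 0 to 0 in each of the other comparisons. No called difference changed its direction under an alternative.

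Gstp1 X02904cds_s_at was called in the mean over days in 41 of 42 alternatives, with differences from 0.95 to 1.72, and the exception was the smaller run alone. The 0.95 comes from the larger run, which leaves out day 4, and the 1.72 is day 4 within the smaller run. Its day 3 call was lost with a common median (1.00, adjusted p = 0.143).

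Over all probe sets tested, 549 were called in the mean over days. The count was 947 with array weights, 269 with the run as a term, 231 with the number format and 364 with 1 test per gene. It was 253 in the larger run, where the mean leaves out day 4. Of the 549, 205 were higher and 344 lower; with a common median 129 were higher and 389 lower.

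No sign was seen that replicate numbers pair the pups, though deviations within groups of 3 arrays cannot exclude it. Across 12 pairs of the same number and day, the correlation of deviations lay between -0.16 and 0.13, with 1 over 0.1, and 2 of 12 arrays correlated best with their own number. With the replicate block 4 probe sets were called in the mean, 2 on day 3, 2 on day 4, 2 between day 4 and day 1 of formula and hypoxia and 0 elsewhere; in the related lists only Dpep1 was lost (adjusted p = 0.0535).

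With 3 arrays a group, and dim probe sets such as Gstt1, small differences could not be resolved.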
